A study of Mus musculus with 2 samples.

Results

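The SR proteins are RNA-binding splicing factors with an arginine- and serine-rich tail, and 10 of their genes are described here: Srsf1, Srsf2, Srsf3, Srsf4, Srsf5, Srsf6, Srsf7, Srsf9, Srsf10 and Srsf11. They were taken from a given list and matched by symbol to Ensembl gene identifiers. All 10 were found among the 43346 genes of the tables, with 67 of the 101510 transcripts that carry a biotype. Polyadenylated RNA longer than 200 nt was taken from C57BL/6J mouse livers at embryonic day 14.5 and sequenced as stranded read pairs, with no genetic change or treatment named. According to the labels each sample pools male and female embryos. The study has 1 group of 2 samples given as biological replicates, called library 1 and library 2 here after their replicate numbers, and no contrast between conditions. The values below are therefore levels in the organ, with the spread between its replicates, and no test of a condition exists.

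SR proteins bind exonic enhancers through their RNA recognition motifs and help the spliceosome to choose nearby splice sites. Kinases phosphorylate the arginine- and serine-rich tail, which controls where the proteins sit in the nucleus and which partners they bind. Most SR genes hold a poison exon, an exon whose inclusion puts a premature stop codon into the messenger RNA. Messages with such a stop upstream of a later exon junction are degraded by nonsense-mediated decay (NMD), and many SR proteins are known to raise inclusion of the poison exon in their own transcript, which limits their own level. At this stage the mouse liver is the main organ of red cell formation and contains erythroid cells beside hepatoblasts.

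Rounded estimated counts summed to 102720906 over the genes of library 1 and to 65640929 over those of library 2. In TPM, globin genes took 48.5% of library 1 and 57.5% of library 2. Of the markers of liver, 8 of 8 hepatocyte genes and 8 of 8 erythroid genes reached a mean of 1 TPM, against 0 of 4 neural genes and 1 of 4 skeletal muscle genes. Xist, which is transcribed from the inactive X chromosome, had 0.11 TPM in library 1 and 24.1 TPM in library 2. The low value in library 1 goes against a pool of both sexes. The Y-linked gene Ddx3y had 8.77 and 4.1 TPM in libraries 1 and 2, and Eif2s3y, also Y-linked, had 19.8 and 10.9 TPM. In bulk RNA, fewer cells of a type and less RNA per cell cannot be told apart.

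Poison exons were defined from GENCODE M21 as exons of noncoding or NMD transcripts that lie inside an intron of a protein-coding transcript. Exons with both ends equal to those of an exon of a protein-coding transcript were left out. Shorter forms of the 268-nt Srsf6 exon and the 90-nt Srsf9 exon do belong to the coding transcripts Srsf6-202 and Srsf9-204. The 104-nt exon near the 3′ end of Srsf2 is left to the 3′ end introns below, since the coding transcript Srsf2-206 holds it with the same ends. Srsf3, Srsf4, Srsf6, Srsf7, Srsf9 and Srsf11 had 9 such cassettes, 7 of 1 exon and 2 of several exons. In all 9 the reading frame of the coding transcript ran into a stop codon within the cassette, after 11 to 152 bases counted to the end of the stop. The stretch from the first base of the exon to that stop is printed for 7 exons, because it is what ends the protein when the exon is included. Capitals mark the stop codon.
Srsf3 456-nt exon: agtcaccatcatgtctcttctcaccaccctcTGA
Srsf7 460-nt exon: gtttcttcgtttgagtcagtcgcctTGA
Srsf6 268-nt exon: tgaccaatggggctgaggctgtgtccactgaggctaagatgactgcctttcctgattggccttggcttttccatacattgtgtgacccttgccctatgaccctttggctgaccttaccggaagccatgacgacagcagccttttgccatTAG
Srsf4 207-nt exon: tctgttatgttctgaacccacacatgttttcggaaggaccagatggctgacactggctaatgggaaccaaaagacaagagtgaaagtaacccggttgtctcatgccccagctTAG
Srsf11 117-nt exon: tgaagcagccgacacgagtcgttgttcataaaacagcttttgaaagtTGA
Srsf11 109-nt exon: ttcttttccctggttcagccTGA
Srsf9 358-nt exon: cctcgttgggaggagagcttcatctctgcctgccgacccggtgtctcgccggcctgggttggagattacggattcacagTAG
On GRCm38 (mm10) these stretches lie at chr17:29039454-29039487 (plus strand, Srsf3), chr17:80205054-80205081 (minus, Srsf7), chr2:162932815-162932966 (plus, Srsf6) and chr4:131884276-131884390 (plus, Srsf4). Those of Srsf11 lie at chr3:158023310-158023359 and chr3:158024209-158024231 (minus), and that of Srsf9 at chr5:115328347-115328428 (plus). In 8 of the 9 cassettes the stop found by reading the frame was the annotated stop of the NMD transcript, and the exception was the 90-nt exon of Srsf9. From the end of the stop to the last exon junction of the transcript there were 67 to 700 bases. Lengths of 6 of the 9 cassettes were no multiple of 3. The 7 single exons had a median length of 268 nt, and 5 of them were longer than 109 nt, the median of the 2079 single exons found by the same rule in all genes. The Srsf3 and Srsf7 exons, of 456 and 460 nt, were among the longest, since 2.65% of all such exons exceeded 400 nt.

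All 10 SR genes were expressed in both libraries, at 31.6 to 320.1 TPM, a level corrected for transcript length and for depth. Srsf2 (chr11:116849901-116853094), a factor that binds exonic enhancers and marks nuclear speckles, had 320.1 TPM in library 1 and 229 TPM in library 2. Srsf5 (chr12:80945504-80950507), first cloned as a gene induced by insulin in regenerating rat liver, had 273 and 175 TPM in libraries 1 and 2. Srsf1 (chr11:88047373-88053755), which activates weak splice sites and is a known proto-oncogene, had 149 and 104 TPM. These 3 genes had the highest means, and their ranges in the 2 libraries overlapped between Srsf2 and Srsf5 but not between Srsf5 and Srsf1.

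A middle group followed. Srsf3 (chr17:29032628-29043373), whose loss in mouse hepatocytes impairs liver maturation, had 134 TPM in library 1 and 81.4 TPM in library 2. Srsf11 (chr3:158010473-158036639), which in neurons helps to include microexons, had 98.4 and 106 TPM in libraries 1 and 2, and was the 1 member with the higher value in library 2. Srsf6 (chr2:162931528-162937121), whose excess causes skin hyperplasia in mice, had 108 and 71.1 TPM. Ranges of neighbours overlapped from Srsf1 through Srsf3 and Srsf11 to Srsf6. Within each library Srsf1 was above Srsf3 and Srsf3 above Srsf6. Srsf11 changed place, below Srsf6 in library 1 and above Srsf1 in library 2. The mm9 levels given at the end put Srsf3 below Srsf6, so the order of these genes also depends on the processing.

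The lower group held 4 genes. Srsf7 (chr17:80200080-80207307), which carries a zinc knuckle and binds the export receptor Nxf1, had 61.1 and 37.6 TPM in libraries 1 and 2. Srsf10 (chr4:135855747-135869908), a splicing repressor when dephosphorylated, had 45.6 TPM in library 1 and 32.65 TPM in library 2. Srsf9 (chr5:115327177-115333080), which can repress splice sites, had 45.45 and 31.6 TPM. Srsf4 (chr4:131873617-131901706), with a long arginine- and serine-rich tail, had 41.7 and 34.95 TPM, all positions being on GRCm38. The ranges of Srsf6 and Srsf7 did not overlap, and those of the 4 genes overlapped with one another. As means, the 10 genes ran from 274 ± 64.6 TPM for Srsf2 to 38.3 ± 4.76 TPM for Srsf4 (SD, n = 2 each). Their median of 95.9 TPM compares with 8.02 TPM over the 11631 genes of a mean of 1 TPM or more.

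**Figure D1:**
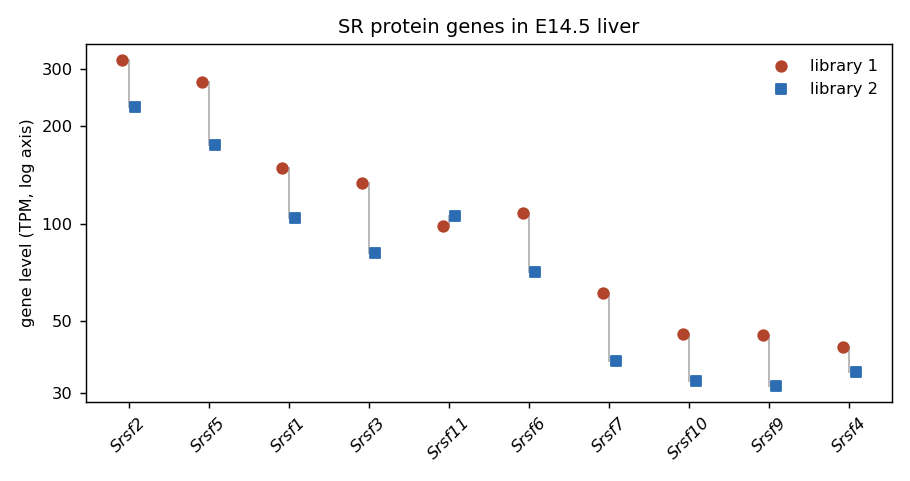
Gene level in TPM (log axis) of the 10 SR protein genes in library 1 (circles) and library 2 (squares), ordered by their mean, with a line joining the 2 values. Library 1 has the higher TPM for 9 of 10 genes, and for 72.2% of the 11631 genes of a mean of 1 TPM or more. The values run from 320.1 TPM for Srsf2 in library 1 to 31.6 TPM for Srsf9 in library 2.

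No SR gene differed 2-fold between the libraries once expected counts were scaled by TMM library sizes with 0.5 added. The count was 0 of 10, where 3.86% of the 11631 genes of a mean of 1 TPM or more passed 2-fold. On the log2 scale, library 1 over library 2, the members ran from -0.10 for Srsf11 to 0.50 for Srsf5, with a median of 0.29. The median of all 11631 genes was 0.02. In 9 of 10 members library 1 was higher, against 52.5% of all genes. The deposited TPM gave a median log2 ratio of 0.52 over the members and 0.23 over all genes, so the TPM scale itself is shifted between the libraries. For Srsf4 the sign depended on the scale, with a log2 ratio of 0.02 from TMM and -0.01 from TPM rescaled without globin and mitochondrial genes.

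The transcript tables divide each gene's TPM among its annotated transcripts, and IsoPct is the percent given to a transcript. GENCODE M21 biotypes class the members' 67 transcripts as 25 protein-coding, 12 NMD, 18 with a retained intron and 12 of other noncoding kinds. A large part of SR gene output went to noncoding transcripts. Summed over the 10 genes, noncoding transcripts took 35.2% of the members' TPM in library 1 and 39.9% in library 2. The median noncoding share of the 10 members, taken over their 2-library means, was 32.0%, with 30.7% in library 1 alone and 30.45% in library 2 alone. Among the 9 members with both kinds of transcript the median was 38.8%, against 12.03% over 6487 genes of a mean of 1 TPM or more with both kinds. At least 25% in both libraries was reached by 5 of these 9 members and by 26% of the 6487 genes. The members' noncoding transcripts had a median length of 868.5 nt and their coding transcripts 1899 nt, and at equal TPM a shorter transcript holds fewer reads. By expected counts the medians were 11.5% for the 9 members and 4.50% for the 6487 genes, and 7 of 9 members lay above the median of all genes on either scale.

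**Figure D2:**
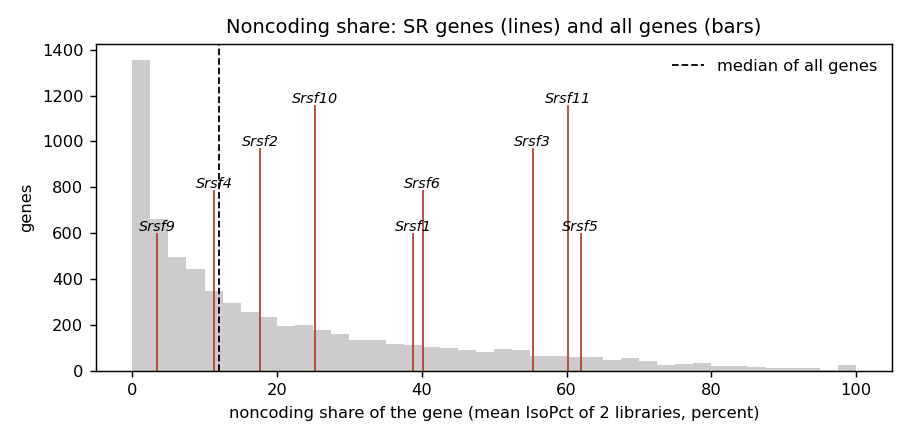
Number of genes (bars) by noncoding share, the summed IsoPct of noncoding transcripts averaged over the 2 libraries, for 6487 genes with both kinds of transcript, with 9 SR genes as labelled lines and the median of all genes as a dashed line at 12.03%. Line heights carry no value. Srsf9 and Srsf4 lie below the median of all genes and the other 7 members above it.

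Srsf3, Srsf5 and Srsf11 gave most of their TPM to noncoding transcripts in both libraries. By expected counts this held in both libraries for Srsf5 alone of these 3, with 55.6% in library 1 and 70.1% in library 2. Srsf3 had 48.9% and 56.2% by counts, and Srsf11 had 39.6% and 49.3%, in libraries 1 and 2. In Srsf3, the coding transcript Srsf3-202 took 47.7% in library 1 and 41.7% in library 2. Its poison exon transcript Srsf3-201 took 33.9% in library 1 and 28.1% in library 2. Srsf3 had the highest NMD share of the members, 31.0 ± 4.13% (SD, n = 2), and the transcripts with a retained intron added 18.4% and 30.3% in libraries 1 and 2. Of these, Srsf3-204 took 11.9% in library 1 and 18.6% in library 2, and Srsf3-205 took 6.43% and 5.52%. Srsf3-203 was listed at 0 in library 1 and took 6.15% in library 2.

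Srsf5 had almost no NMD transcript, 0.17% in library 1 and 0.11% in library 2. The coding transcript Srsf5-201 took 35.5% in library 1 and 20.5% in library 2. Srsf5-212, which keeps the 1229-nt intron that is spliced in Srsf5-201, took 23.1% and 28.2% in libraries 1 and 2. The short transcript Srsf5-211 of 538 nt, of the processed transcript class, took 20.3% in library 1 and 33.7% in library 2. Srsf5-202, also coding, took 9.51% and 7.59%, and Srsf5-206, noncoding, took 8.64% and 5.72% in libraries 1 and 2. The coding transcripts of Srsf5 summed to 126 TPM in library 1 and 52.6 TPM in library 2, the widest gap among the 10 members.

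Srsf11 had 14 transcripts in the tables, the most of the 10 members. Srsf11-203, a transcript with a retained intron, took 24.1% in library 1 and 46.4% in library 2. The coding transcripts Srsf11-202 and Srsf11-204 took 26.5% and 18.5% in library 1, and 18.1% and 12.6% in library 2. Further transcripts with a retained intron were Srsf11-213, at 9.20% and 5.95% in libraries 1 and 2, and Srsf11-208, at 8.75% and 6.29%. The NMD transcript Srsf11-206 with both poison exons took 4.88% in library 1 and 3.17% in library 2. For this gene the replicate difference in Srsf11-203 was larger than the share of any NMD transcript.

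Srsf6 and Srsf1 were intermediate, with noncoding shares of 40.2 ± 3.08% and 38.8 ± 7.14% (SD, n = 2 each). The coding transcript Srsf6-203 took 57.1% in library 1 and 60.7% in library 2, and the poison exon transcript Srsf6-201 took 19.7% and 10%. Srsf6-204, with a retained intron, took 22.6% in library 1 and 28.0% in library 2. In Srsf1 the coding transcript Srsf1-205 took 24.2% in library 1 and 26.3% in library 2, Srsf1-201 took 23.5% and 21.2%, and Srsf1-202 took 18.6% and 8.64%. Srsf1-203, of 759 nt and with a retained intron, took 18.6% in library 1 and 34.7% in library 2, and the NMD transcript Srsf1-204 took 11.7% and 5.12%. By expected counts the noncoding share of Srsf1 was 9.00 ± 0.492% (SD, n = 2).

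Srsf2, Srsf10, Srsf4 and Srsf9 were mostly coding. Srsf2-201 took 78.1% in library 1 and 84.2% in library 2, beside 10.4% and 5.21% for the NMD transcript Srsf2-204. Srsf2-203, with a retained intron, took 8.75% and 8.02%. Srsf10 had a noncoding share of 25.3 ± 3.34%, and all of it was of the processed transcript class. By expected counts that share was 4.23 ± 0.783% (SD, n = 2). Its coding transcripts Srsf10-204, Srsf10-205 and Srsf10-202 took 34.8%, 24.2% and 10.1% in library 1, and 33.6%, 28.9% and 12.6% in library 2. Among the noncoding ones, Srsf10-207 took 11.3% and 10.4%, and Srsf10-210 took 5.44% and 4.92% in libraries 1 and 2. Srsf4 and Srsf9 had noncoding shares of 11.3 ± 0.508% and 3.49 ± 2.05% (SD, n = 2 each). Srsf4-202 took 88.3% and 89.0%, the NMD transcript Srsf4-204 took 6.50% and 6.91%, and the coding Srsf9-201 took 95.1% and 96.8% in libraries 1 and 2.

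Srsf7 was 100% coding in both libraries because the tables list 1 transcript for it, Srsf7-201. The isoform split therefore cannot show a poison exon for this gene. The splice junctions below carry reads for it.

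**Figure D3:**
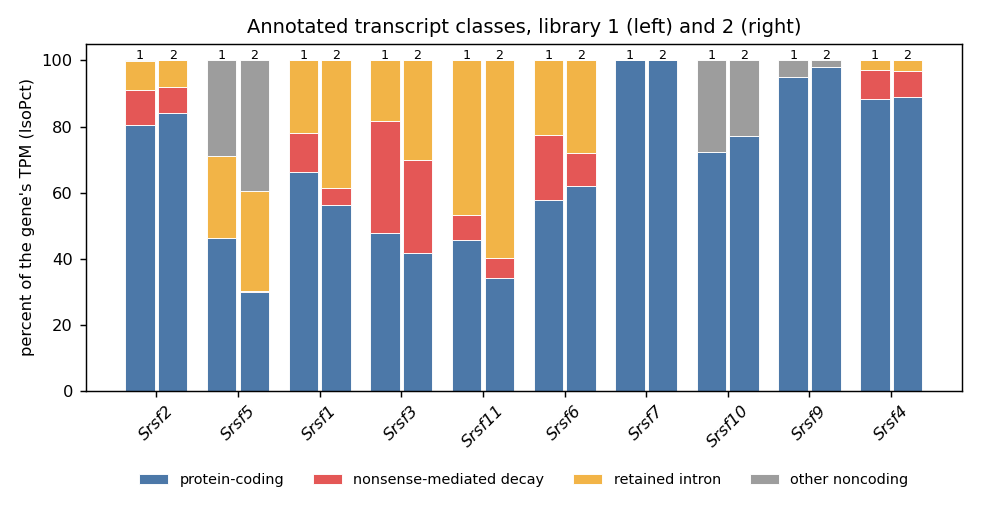
Percent of each SR gene's TPM (IsoPct) given to protein-coding, NMD, retained-intron and other noncoding transcripts, with library 1 as the left and library 2 as the right bar of each pair. Srsf3 has the largest NMD part, 33.9% and 28.1% in libraries 1 and 2, and Srsf7 is 100% coding with 1 transcript in the tables.

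NMD and retained-intron shares differed in opposite directions between the replicates in most members that have both. Both are parts of the same total per gene, so they are no independent measures. The NMD share was higher in library 1 in 7 of the 7 members with NMD transcripts, while 47.1% of 2236 genes with NMD transcripts were higher in library 1. The gap ran from 0.17% in library 1 and 0.11% in library 2 for Srsf5 to 19.7% and 10% for Srsf6. The share of retained-intron transcripts was lower in library 1 in 6 of the 7 members that have them, against 44.3% of 4616 genes. The exception was Srsf2, with 8.75% in library 1 and 8.02% in library 2. The 47.1% counts higher and the 44.3% lower values only, so the other genes can also be equal in both libraries. NMD shares of at least 5% in both libraries were found in 6 of 7 members and in 36.6% of the 2236 genes. The medians were 8.41% for the members and 3.604% for those genes.

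Reads over splice junctions measure the poison exons without dividing reads among transcripts. The junction table is on mm9, with 87568498 reads in its first and 66913746 in its second replicate. The sources used here do not say which library either replicate is. Inclusion is the mean of the reads entering and leaving the cassette, as a percent of that mean plus the reads of the junction that skips it. Wilson 95% intervals cover counting error only. All 9 cassettes of the members had at least 10 such counts, and their median inclusion was 11.3%, with 9.77% in the first and 14.3% in the second replicate. The median over 2167 cassettes of all genes found in the same way was 2.13%. At least 10% inclusion in both replicates was seen in 4 of 9 members' cassettes and in 22.9% of all 2167. For the 2 cassettes of several exons, only the junctions at the ends were counted, and these also serve other paths. Over the 7 cassettes of 1 exon the median was 4.96%, against 1.98% over 2079 of all genes. Of these 7, 2 reached 10% in both replicates, beside 22.1% of the 2079.

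Srsf3 stood apart. Its 456-nt exon was entered by 357 reads in the first and 225 in the second replicate, and left by 77 and 48 reads. The skipping junction had 47 and 11 reads. Inclusion was 82.2% in the first replicate (interval 77.1 to 86.3) and 92.5% in the second (86.4 to 95.3). Over both replicates, the entry junction alone gave 90.9% and the exit junction alone 68.3%. Of all 2167 cassettes, 6.55% were included at least as much as the pooled 85.9%. As mean shares of TPM, the poison exon transcript Srsf3-201 took 31.0% and the skipping transcript Srsf3-202 44.7%, while inclusion reads exceeded skipping reads. Those shares are of all Srsf3 TPM, including transcripts that hold none of these junctions, so they are no like measure of inclusion. The entry junction also belongs to Srsf3-203, a transcript with a retained intron.

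Reads over the coding junctions of Srsf3 were uneven. From the 5′ end they had 499, 786, 58, 120 and 2129 reads over both replicates, and the skipping junction is the one with 58. A 100-base sequence across each junction was compared with the transcripts of all other genes. At 95% identity or more over at least 90 bases, the skipping junction of Srsf3 matched 4 other genes, 3 of them pseudogenes, while the junctions into and out of the poison exon matched none. The last Srsf3 junction, with 2129 reads, matched 1. Of the 4 genes matched by the skipping junction, 3 are in the gene tables. Their highest level was 3.88 TPM in library 1 and 1.21 TPM in library 2. A gene level does not show how junction reads over shared sequence were assigned. The part of these copies in the measured inclusion was not tested.

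The 17336-nt first intron of Srsf4 holds a cassette annotated with 3 exons and 589 nt. It was entered by 63 and 9 reads in the first and second replicates and left by 160 and 68, with 389 and 129 reads skipping it. The mean of both ends gave 22.3% (19.0 to 26.3) and 23.0% (16.9 to 29.5), but the ends differed between replicates in opposite directions. Entry reads were 16.2% of the skipping reads in the first and 6.98% in the second replicate, and exit reads were 41.1% and 52.7%. Over both replicates, entry alone gave an inclusion of 12.2% and exit alone 30.6%. The exit junction also belongs to Srsf4-201 and Srsf4-204. Inside the cassette, the acceptor of Srsf4-203 for its last exon was used by 1 read and that of Srsf4-204 by 85, so these percentages describe exons in this intron and not the 589-nt form. The NMD and retained-intron transcripts of Srsf4 took 11.3% of its TPM.

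In Srsf11 the 3774-nt intron holds poison exons of 117 and 109 nt, annotated singly and together. The junction leaving the 117-nt exon on its 3′ side had 224 and 137 reads in the first and second replicates, and the skipping junction 1074 and 555. The end junctions of the 226-nt form with both exons gave 11.6% (9.99 to 13.6) in the first and 15.5% (12.98 to 18.5) in the second replicate, but its exit junction also serves the 117-nt exon alone. The 117-nt exon gave 11.8% (10.1 to 13.8) in the first and 14.3% (11.7 to 17.1) in the second replicate. The 109-nt exon gave 2.81% (1.98 to 3.95) and 6.17% (4.42 to 8.30). Over both replicates, entry and exit alone gave 6.43% and 18.1% for the 117-nt exon, and 7.13% and 0.610% for the 109-nt exon. These 3 cassettes share junctions, so they are no independent measures. The junction that only the 226-nt form holds, between the 109-nt and 117-nt exons, had 13 reads in the first and 14 in the second replicate, while 112 reads joined the upstream coding exon directly to the 117-nt exon. Srsf11-203, to which the tables give 24.1% and 46.4% of TPM, had few reads over the junctions of its own. Its 1963-nt intron had 17 reads in the first and 10 in the second replicate, 1.58% and 1.80% of the skipping junction, and its 466-nt intron had 23 and 20.

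The Srsf6 268-nt exon was included in 9.77% (8.54 to 11.2) in the first and 14.6% (12.5 to 17.2) in the second replicate, and these intervals do not overlap. It was entered by 107 and 74 reads, left by 281 and 181, and skipped by 1791 and 743. The entry junction also serves a shorter form of the exon, that of the coding transcript Srsf6-202, which 41 reads left at another donor. The pooled 11.3% was 6.67% from the entry and 15.4% from the exit junction alone. Srsf6-201, which holds the exon, took 14.9 ± 6.86% (SD, n = 2) of all Srsf6 TPM, which is no like measure of inclusion.

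For Srsf7, the junctions of the 460-nt exon were not marked as annotated in the deposited table. They were nonetheless read, with 133 and 99 reads entering in the first and second replicates, 47 and 56 leaving, and 2029 and 1179 skipping. Inclusion was 4.25% (3.47 to 5.19) in the first and 6.17% (5.00 to 7.68) in the second replicate. The exon is that of the NMD transcript Srsf7-203 in GENCODE M21, matched through the equal lengths of the 3 introns (180, 234 and 874 nt). Over both replicates the exit junction alone gave 3.11% and the entry junction alone 6.74%. The gene listed as 100% coding in the transcript tables thus had reads over its poison exon in both replicates.

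Srsf9 had the lowest inclusion. Its 90-nt exon gave 1.66% (1.11 to 2.37) in the first and 1.62% (0.970 to 2.54) in the second replicate. Entry alone gave 0.464% for this exon and exit alone 2.80%. The exit junction also belongs to the coding transcript Srsf9-204, whose own acceptor was used by 1 read over both replicates. Its 358-nt exon gave 0.698% (0.390 to 1.25) and 0.539% (0.183 to 1.57). The junction into the 358-nt exon, which was not marked as annotated, had 10 reads in the first and 3 in the second replicate.

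**Figure D4:**
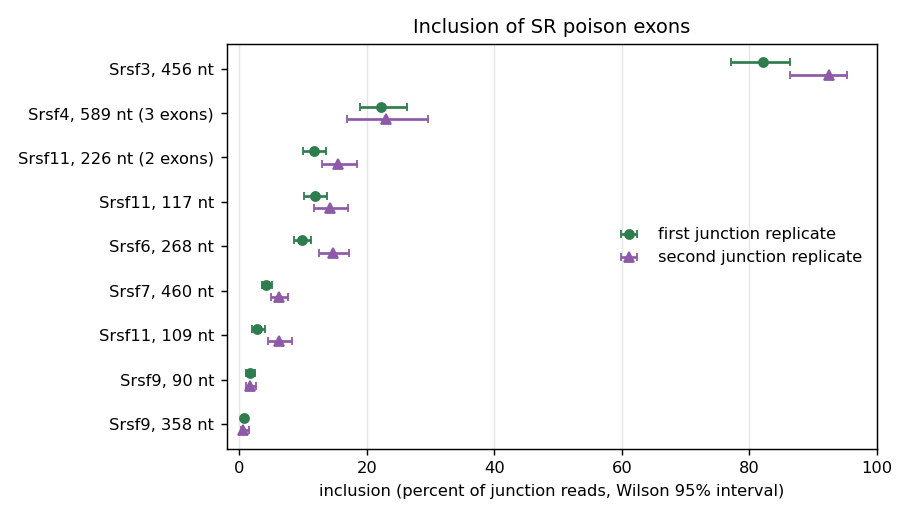
Inclusion of the 9 poison cassettes, in percent of junction reads with Wilson 95% intervals, in the first (circles) and second (triangles) junction replicate, each named by gene and total exon length, with the end junctions alone counted for cassettes of several exons. Srsf3 lies at 82.2% and 92.5%, Srsf4 at 22.3% and 23.0%, and the other 7 cassettes at 15.5% or less.

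In Srsf1 and Srsf2 the NMD transcripts are set up at the 3′ end, where introns lie downstream of the normal stop. In Srsf2, the 502-nt intron kept in the coding transcript Srsf2-201 was spliced in 1114 and 462 reads in the first and second replicates. That was 28.7% and 25.3% of the 3875 and 1827 reads over the last junction of Srsf2-201, which also lies after its stop. The 104-nt exon inside the last intron of Srsf2-201 was included in 3.39% (2.87 to 4.00) in the first and 3.99% (3.20 to 4.97) in the second replicate.

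In Srsf1, the 881-nt intron beyond the stop of Srsf1-205 was spliced in 693 and 251 reads, or 22.5% and 26.0% of the 3080 and 965 reads of the last coding junction. Srsf1-203 and the NMD transcript Srsf1-204 both contain this junction. The 761-nt junction that Srsf1-204 alone holds had 14 and 3 reads, 0.455% and 0.311% of the last coding junction, beside the 11.7% and 5.12% of TPM given to that transcript in libraries 1 and 2. From the 5′ end the coding junctions of Srsf1 had 1934, 2507 and 3080 reads in the first replicate, and 2513, 1155 and 965 in the second. Set against the first coding junction in place of the last, the 881-nt intron stood at 35.8% in the first and 9.99% in the second replicate. For Srsf2 the same change gave 37.7% and 34.1%.

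Srsf5 and Srsf10 had no cassette of this kind. In Srsf5, the 1229-nt intron was spliced from end to end by 22 and 7 reads in the first and second replicates, while 148 and 64 reads used the acceptor of Srsf5-206 within it. The coding junctions before and after it had 762 and 590 reads over both replicates, against 3971 at the 3′ end of the gene. At the 5′ end, the 777-nt junction of Srsf5-205 and Srsf5-211 had 442 and 856 reads, which was 9.35% of the reads of the 903-nt junction of Srsf5-201 in the first replicate and 99.2% in the second. This is a large difference between replicates of 1 group, and its source was not tested.

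In Srsf10 the 370-nt intron of the noncoding transcripts Srsf10-201 and Srsf10-207 had 97 and 81 reads in the first and second replicates, and the 3364-nt coding intron had 255 and 369. From the 5′ end the coding junctions of Srsf10-204 had 1593, 624, 30, 33 and 45 reads. All 5 had a near copy in 1 or 2 other genes. Of the 7 Srsf5 junctions 6 had one, and so did all 5 of Srsf3.

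The ratio of the most to the least read coding junction was 193 in Srsf5, 53.1 in Srsf10 and 36.7 in Srsf3. In the other 7 members it was 1.21 to 4.11 over both replicates. Within replicates, Srsf11 had a ratio of 2.93 in the first and 16.7 in the second, where its junctions ran from 102 to 1701 reads. Of these 7 members Srsf7 had a near copy for 1 of its 7 junctions, the most read one with 5749 reads, and the others for none. Among the Srsf5 junctions with a near copy, reads ran from 29 at junction 5 to 5011 at junction 2. The part of near copies in the uneven reads was not tested.

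**Figure D5:**
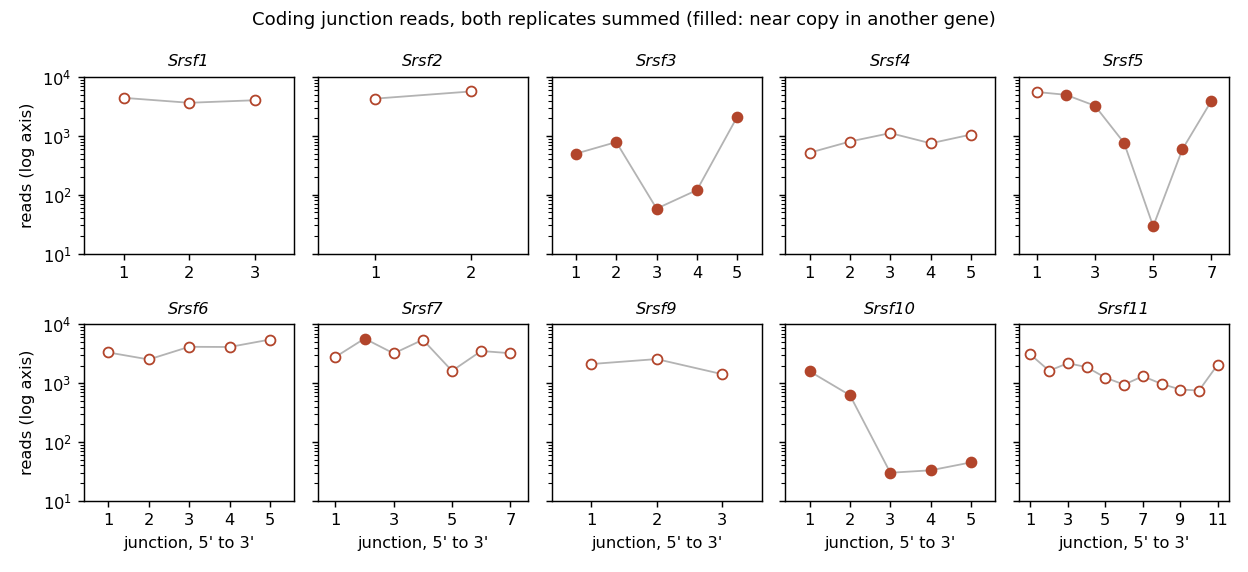
Reads of both replicates (log axis) over each junction of the most abundant coding transcript of the 10 SR genes, numbered from the 5′ end, with filled points for junctions whose 100-base sequence has a near copy in another gene. Srsf3, Srsf5 and Srsf10 span a wide range, down to 58, 29 and 30 reads, while the other genes vary by 1.21 to 4.11 times in these summed reads.

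Most genes known to act on SR proteins were expressed too. Of 10 kinases and phosphatases of SR proteins, 9 reached a mean of 1 TPM. None of these differed 2-fold between the libraries in either direction on TMM-scaled counts or on TPM. Over the 11631 genes of a mean of 1 TPM or more, 3.86% did on TMM-scaled counts and 6.24% on TPM. The highest were Ppp1ca, a phosphatase subunit, with 196 TPM in library 1 and 182 TPM in library 2, Clk1 with 92.6 and 46.7 TPM, and Clk3 with 66.5 and 62.8 TPM. The muscle kinase Srpk3 had 0.11 TPM in library 1 and 0.05 TPM in library 2. Clk1, a kinase of SR proteins, gave 70.4% of its TPM to noncoding transcripts in library 1 and 73.9% in library 2, more than any SR gene in both libraries.

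The 13 NMD factors of the list were expressed at lower levels than the SR genes, with a median of 7.13 TPM against 95.9 TPM for the SR genes, and each was above 1 TPM. The highest were Smg5 with 32.8 TPM in library 1 and 36.2 TPM in library 2, the release factor Etf1 with 27.8 and 16.7 TPM, and Smg9 with 19.6 and 22.2 TPM. All 8 genes of the exon junction complex reached 1 TPM, and Rnps1 (104 and 86.3 TPM), Eif4a3 (94.2 and 67.6 TPM) and Magoh (96.1 and 59.6 TPM) led. No gene of either list differed 2-fold between the libraries on TMM-scaled counts, where 3.86% of all genes of a mean of 1 TPM or more did. On TPM 2 of the 13 NMD factors and 1 of the 8 exon junction genes did, all higher in library 1. On that scale 6.24% of the 11631 genes of a mean of 1 TPM or more passed 2-fold, and their median log2 ratio was 0.23 toward library 1.

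Among 12 SR-related and other proteins with such tails, 11 reached 1 TPM. Srrm2, a scaffold of nuclear speckles, had 129 TPM in library 1 and 152 TPM in library 2. U2af1 had 139 and 90.1 TPM, and Snrnp70 138 and 76.5 TPM. Srsf12 had 0.06 TPM in library 1 and 0.07 TPM in library 2. All 4 import and export partners and all 11 hnRNP genes reached 1 TPM. The leaders were Nxf1 (107 and 137 TPM), Alyref (109 and 46.0 TPM) and Tnpo3 (26.2 and 19.99 TPM), and Hnrnpa1 (444 and 291 TPM), Hnrnpa2b1 (395 and 177 TPM) and Hnrnpk (262 and 193 TPM). On TMM-scaled counts no gene of these 3 lists with a mean of 1 TPM or more differed 2-fold between the libraries. The share over all such genes was 3.86%. On TPM 2 hnRNP genes, Hnrnpa2b1 being 1 of them, and the export partner Alyref were over 2-fold higher in library 1. The share past 2-fold on TPM was 6.24% over the 11631 genes of a mean of 1 TPM or more. The members' noncoding median of 38.8% stands beside 45.9% for 5 kinases and phosphatases, 27.8% for 8 NMD factors, 24.7% for 5 SR-related genes, 21.8% for 8 hnRNP genes, 13.5% for 3 import and export partners and 3.54% for 5 exon junction genes, each over its genes with both kinds of transcript.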

How the data were processed

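Polyadenylated RNA of embryonic liver was measured in 2 libraries of 1 group. The members and gene lists were chosen with earlier results of these data known. Per the file headers, the mm10 gene and transcript tables deposited by the authors hold expected counts (estimated counts that need not be whole), TPM, FPKM (not analysed further) and IsoPct, the percent of a gene given to each transcript. A deposited note names annotation M4 for them. The mm9 tables give the authors' RPKM on Ensembl 65 models and, per the file headers, each deposited splice junction has a read count and an irreproducible discovery rate, akin to a q-value. The aligner is not given in the sources used here. In the mm9 tables the RPKM of an exon equalled the sum over its transcripts, within 0.1%, for 351001 of 351001 exons, so it adds no exon-level reads.

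Expected counts were rounded and scaled by TMM (edgeR 4.0.16, R 4.3.3), with DESeq2 1.42.0 size factors as an alternative; spike-ins, phiX and numeric identifiers stayed out, which left 97.1% of the estimated counts in library 1 and 98.1% in library 2. Biotypes came from GENCODE M21 by transcript identifier (101510 of 103639 matched). Cassettes were found on M21 and tied to mm9 junctions in the same gene by equal intron lengths, with no conversion of coordinates, and each member cassette had 1 candidate. Sequences are M21 transcripts read by script. Near copies came from blastn 2.17.0+ and everything else from Python 3.11.15, pandas 2.3.3, numpy 2.4.6, scipy 1.17.1 and matplotlib 3.10.9. Ratios and matching were tested on simulated data. With 1 group no edgeR test of groups applies. Genes named are the members, their transcripts of at least 5% mean IsoPct, their cassettes and 3′ end introns, and from each pathway list the 3 highest in TPM and those under 1 TPM. A 2-library spread measures these samples, which according to the labels come from pooled littermates.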

Additional observations from a re-analysis of the deposited data

How the results depend on the processing

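The count of members past 2-fold between the libraries was 0 under TMM and under all 7 other settings: DESeq2 size factors, total counts, deposited TPM, a fold of 1.5, 1 or 0.1 added, and no minimum of 1 TPM. Of the 11631 genes of a mean of 1 TPM or more, 13.8% passed at 1.5-fold and 6.24% on TPM. With no minimum 19.9% of 22233 genes passed, and the other settings gave 3.75% to 4.00%. With 10 members and shares of this size, the 0 counts are a weak check. The median noncoding share of the 10 members, 32.0%, was 10.3% by expected counts, 7.55% with NMD transcripts alone and 8.86% without retained introns. It was 30.45% to 30.7% when either library was left out, and 32.0% with transcripts of at least 300 nt. In settings chosen after seeing the data it was 32.4% with the posterior IsoPct, 38.8% without Srsf7 and 33.7% from mm9 transcript RPKM. The mm9 shares leave out transcripts with no M21 biotype. These include the highest one of Srsf4, with 11.4 and 7.10 RPKM in the first and second replicates, and that of Srsf10, with 5.51 and 4.26. An Srsf7 transcript with 12.8 and 2.64 RPKM is also left out. Only Srsf7-201, with 9.78 and 7.63 RPKM, remains for that gene, so its mm9 noncoding share of 0% was fixed. Median cassette inclusion, 11.3%, was 6.43% from the lower and 15.4% from the higher of the entry and exit junctions. It was 11.3% with no count minimum or a discovery rate of at most 0.1. Chosen after seeing the data, it was 4.96% over cassettes of 1 exon, 8.11% without Srsf3 and 9.77% to 14.3% with either junction replicate left out. Exon RPKM covers 5 of the exons, with a median of 8.47%, and is no like-for-like repeat. By member, expected counts moved 6 of 10 noncoding shares by more than the replicate spread and mm9 RPKM moved 7 of 10, while the lower or the higher junction moved 8 of 9 inclusion values each. The cause was not tested. Depth limits the cassettes of Srsf9 and the 109-nt exon of Srsf11, with 10 to 15 reads on a junction over both replicates. No paired analysis was possible because there is 1 group.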

Other observations

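Levels of the members in the mm9 gene table gave another order than the mm10 TPM. In the deposited mm9 RPKM, Srsf2 led with 79.5 in its first and 70.0 in its second replicate, and Srsf1 came next with 55.7 and 43.0. Srsf5 had 54.7 and 34.5, and Srsf3, at rank 4 by TPM, was at rank 6 with 32.2 and 19.6. Of the 10 genes, 2 kept their rank between the tables. By coding TPM alone, Srsf7 was at rank 5 with 61.1 in library 1 and 37.6 in library 2, and Srsf11 at rank 7 with 44.8 and 35.9.

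Junction reads of the same gene varied between replicates by more than depth. Over 53 coding junctions of the members, the first replicate had 0.691 to 9.00 times the reads of the second, with a median of 2.41, while all junction reads stood at 1.31. The lowest ratio was at junction 2 of Srsf10 and the highest at its junction 3, which had 27 reads in the first and 3 in the second replicate. Inclusion was lower in the first replicate in 7 of the 9 member cassettes, and in 37.1% of all 2167 cassettes. The 37.1% counts lower values only, so the rest can be higher or equal in the first replicate. The Srsf11 cassettes among the members share junctions and are no independent cases.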
